A study of Mus musculus with 6 samples.

Results

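The matrix metalloproteinases (MMPs), the ADAMTS proteases, the ADAMTS-like proteins and the tissue inhibitors of metalloproteinases (TIMPs) were examined in cultured primary osteocytes. They were taken from the deposited gene table as every protein-coding gene whose symbol starts with Mmp, Adamts, Adamtsl or Timp followed by a number. This gave 51 of the 56748 genes listed, namely 23 MMPs, 19 ADAMTS proteases, 5 ADAMTS-like proteins and 4 TIMPs. The rule used symbols and biotype and no expression value, but the group was chosen with earlier results of these data known.

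RNA from 6 cultures was sequenced. Osteocytes, the cells that live within the mineral of bone, were released from the limb bones of mice, which the study's methods describe as 7-week-old C57BL/6 animals, and kept in culture for 7 days. The 3 WT cultures carried intact Gsdmd, the gene for the pore-forming protein of pyroptosis. The 3 cKO cultures came from Gsdmd fl/fl mice with a Cre recombinase driven by the Dmp1 promoter, so that deletion was limited to cells in which that promoter had been active, and the floxed alleles and the Cre were present in this genotype only. All 6 cultures had been given LPS at 10 ng/mL for 3 h and then aluminum hydroxide, which activates the inflammasome, at 20 µg/mL for 3 h. Unstimulated cultures were not analysed here, and every comparison asks how WT and cKO cultures differed after stimulation.

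MMPs, ADAMTS proteases and their relatives ADAMs are zinc enzymes that cut the proteins of the extracellular matrix. Collagenases open the fibrils of type I and type II collagen, gelatinases go on to degrade the unwound chains, stromelysins cut proteoglycans and can activate other MMPs, and the aggrecanases of the ADAMTS family cut aggrecan, the main proteoglycan of cartilage. MMPs and most ADAMTS proteases are made as inactive proenzymes, and TIMPs bind the active site of the mature enzyme, so the amount of transcript does not give the amount of activity. In bone, osteocytes are known to use MMPs, Mmp13 among them, to remodel the matrix around their lacunae.

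The libraries held 39566835 to 49734046 counts. Gsdmd itself was higher in the cKO libraries, at 22.5 ± 1.33 against 13.9 ± 0.339 counts per 1000000 (CPM; SD, n = 3 each), so they are called cKO-labelled, and every direction below rests on that label. Xist had 44817 to 51216 counts in the cKO-labelled libraries and 0 to 4 in WT, and the Y-linked Ddx3y had 0 counts in the former and 4033 to 5455 in the latter, so sex and genotype cannot be told apart. The defining markers of osteocytes were nearly absent: Dmp1 had 0 to 6 counts per library, Mepe 0 to 2, Phex 2 to 22, Fgf23 0 to 34 and Sost 0, and only Pdpn of the 6 osteocyte markers had enough counts to be tested. All 11 macrophage markers were at least 2-fold higher in the cKO-labelled libraries, and their summed level was 1799 to 1909 CPM there and 212 to 245 CPM in WT. Other lists moved too: 4 of the 5 endothelial markers were at least 2-fold lower and Kdr was higher, at sums of 6.32 to 6.71 CPM against 6.42 to 6.84 in WT, and of the 6 fibroblast markers 3 were higher and 2 lower, at 1269 to 1294 against 1043 to 1096 CPM. Of the 6 osteoblast markers 4 were tested, Ibsp and Alpl were higher, and Sp7 and Col1a1 were lower. Their sum, most of it Col1a1, was 5527.5 to 6166.7 CPM in WT and 3572.5 to 3853.4 CPM in the cKO-labelled libraries. In RNA from whole cultures, fewer cells of a type and less RNA per cell cannot be told apart. The labels do not say whether the 3 libraries of a genotype came from separate animals, so the p-values measure the spread between these libraries, which may be technical.

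Of the 51 genes, 36 had enough counts to be tested, and 28 of these changed, at a Benjamini-Hochberg adjusted p below 0.05 in the quasi-likelihood test of edgeR. They made up 77.8% of those tested, against 39.3% of all 17146 tested genes. In the cKO-labelled libraries 12 were higher and 16 lower, or 33.3% and 44.4%, where 20.1% of all tested genes were higher and 19.2% lower. Changes of at least 2-fold were seen in 14 genes, or 38.9%, against 11.2% of all tested genes. The 5 that rose by this much (13.9% against 6.56%) were Mmp8, Mmp13, Mmp27, Mmp12 and Adamtsl3. The 9 that fell (25.0% against 4.64%) were Adamts15, Mmp9, Adamtsl1, Mmp17, Mmp10, Adamts14, Adamts12, Adamts9 and Adamts2. The median log2 fold change over the 36 genes was -0.05, and over all tested genes 0.01. For 30 of the 36 genes the levels of the 3 WT and the 3 cKO-labelled libraries were apart, or 83.3%, against 49.2% of all tested genes. These shares describe the 36 genes that passed the filter on low counts and not all 51. They come from a group chosen with earlier results known.

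**Figure D1:**
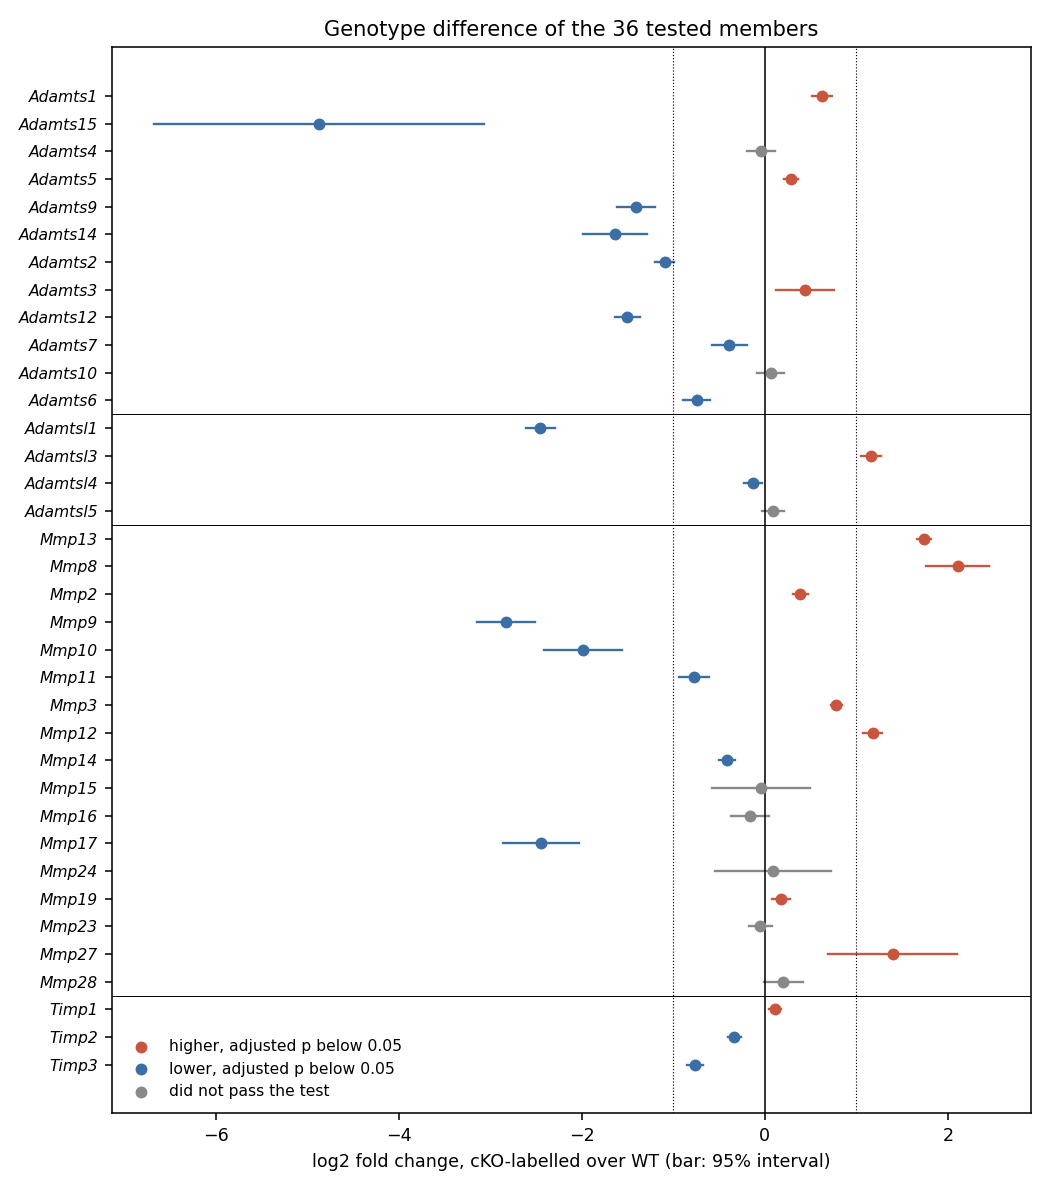
Log2 fold change of the 36 tested genes, cKO-labelled libraries over WT, with bars for the 95% interval and dotted lines at 2-fold, grouped from top to bottom into ADAMTS proteases, ADAMTS-like proteins, MMPs and TIMPs. Of these, 12 lie to the right of 0 and 16 to the left with an adjusted p below 0.05, and the point for Adamts15 rests on 0 to 2 counts in the cKO-labelled libraries.

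By function, the split followed no single direction. These counts are to be read against 20.1% of all tested genes higher and 19.2% lower. Both tested collagenases (Mmp8 and Mmp13) and the macrophage elastase Mmp12 were higher. Of the 3 tested stromelysins the most abundant, Mmp3, rose, and Mmp10 and Mmp11 fell. Of the 2 gelatinases Mmp2 rose and Mmp9 fell. Of the 5 tested ADAMTS proteases grouped as cutting aggrecan and versican, 2 rose and 2 fell. Of the membrane-anchored MMPs, Mmp14 and Mmp17 fell and the 3 others tested did not pass the test. Of the 3 procollagen N-proteinases 2 fell and 1 rose. Adamts7 and Adamts12, grouped here as proteases that cut cartilage oligomeric matrix protein, both fell. Of the 3 tested TIMPs 2 fell and 1 rose.

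Of the 23 MMP genes, 10 stand side by side on chromosome 9, from 7272514 to 7699586 in mm39, a span of 427 kb. In order they are Mmp13, Mmp12, Mmp1b, Mmp3, Mmp1a, Mmp10, Mmp8, Mmp27, Mmp20 and Mmp7. Of the 6 with enough counts to be tested, 5 were higher in the cKO-labelled libraries, and Mmp10, which lies between Mmp3 and Mmp8, was lower. The direction therefore differed between close neighbours. Over all tested genes 20.1% were higher and 19.2% lower.

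Promoter windows of 250 bases before and 50 bases after the start, from RefSeq for the build GRCm38.p6, were found for 36 of the 51 genes, including all 10 of the cluster. Windows of the other 15 were not used here. The motif of AP-1, the Fos and Jun family of transcription factors, was searched as TGANTCA, with N for any base. It reads alike on both strands. This motif was in the window of 8 of the 36 genes, or 22.2%, against 8.97% of all 27025 genes with a window. All 8 belonged to the cluster (Mmp13, Mmp12, Mmp1b, Mmp3, Mmp1a, Mmp10, Mmp20 and Mmp7), and 0 of the 26 other genes had it. The letters were TGAATCA in Mmp20 and TGAGTCA or TGACTCA in each of the others. A gene was counted if any of its windows held the motif. Mmp12 has 2 windows, and the motif was in the one further downstream, at chr9:7347124-7347423, and not in the one at the start that the gene table gives. TATAAA, read on both strands, was in the window of 12 of the 36 genes, or 33.3%, against 15.7% of all genes. The Runx motif TGTGGT and the NF-kB motif, read on both strands, were each found for 6 of the 36 genes, or 16.7%, against 18.9% and 9.55% of all genes. The 120 bases before the start are printed for 5 genes of the cluster, with and without the AP-1 motif, which is in capitals. They lie on the plus strand of chromosome 9 in GRCm38.p6, at chr9:7272394-7272513 for Mmp13, chr9:7445702-7445821 for Mmp3, chr9:7502222-7502341 for Mmp10, chr9:7558309-7558428 for Mmp8 and chr9:7571276-7571395 for Mmp27.
Mmp13: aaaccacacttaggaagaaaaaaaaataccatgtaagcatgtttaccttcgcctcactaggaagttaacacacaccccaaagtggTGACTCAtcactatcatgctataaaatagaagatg
Mmp3: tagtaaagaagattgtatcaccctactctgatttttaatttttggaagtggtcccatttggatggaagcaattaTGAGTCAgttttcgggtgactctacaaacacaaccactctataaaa
Mmp10: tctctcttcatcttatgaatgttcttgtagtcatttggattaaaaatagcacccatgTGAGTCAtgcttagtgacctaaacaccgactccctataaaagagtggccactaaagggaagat
Mmp8: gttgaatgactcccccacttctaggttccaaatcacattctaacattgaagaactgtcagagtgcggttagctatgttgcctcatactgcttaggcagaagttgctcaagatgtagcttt
Mmp27: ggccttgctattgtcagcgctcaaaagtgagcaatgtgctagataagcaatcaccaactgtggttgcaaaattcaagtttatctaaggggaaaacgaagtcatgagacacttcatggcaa

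The first base of the motif lay 35 bases before the start in Mmp13 (position -35), at -46 in Mmp3 and at -63 in Mmp10. Mmp13 and Mmp3, which have it, rose, and Mmp10, which has it too, fell. Mmp8 and Mmp27, whose windows lack these letters, rose as well. Mmp12, which has the motif in its downstream window only, rose too. Only 1 tested gene of the cluster fell, and whether the motif bears on direction was not tested. Of the genes for AP-1 subunits, Fos rose 4.90-fold, from 13.1 ± 0.0523 to 64.1 ± 1.77 CPM (SD, n = 3 each; log2 fold change 2.29). Junb rose by a log2 fold change of 0.27 and Fosl1 fell, with a log2 fold change of -0.31, while Fosl2, Jun, Jund and Fosb did not pass the test.

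**Figure D2:**
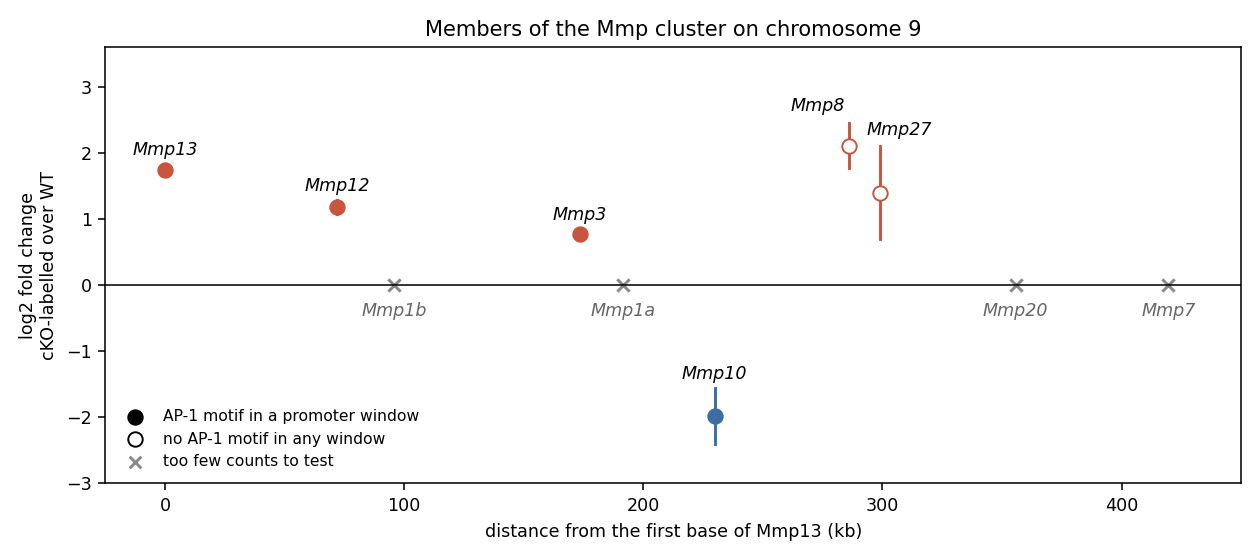
Log2 fold change (cKO-labelled libraries over WT, bars for the 95% interval) of the genes of the chromosome 9 cluster, against the distance from the first base of Mmp13 in kilobases. Filled points have the AP-1 motif in a promoter window (for Mmp12 the downstream one of 2), open points do not, and crosses mark the 4 genes with too few counts to test; Mmp10 is the only tested gene below 0.

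Among the collagenases, Mmp13 was the most abundant and Mmp8 changed by the larger factor. Mmp13 was counted 40620, 41947 and 34556 times in WT and 121857, 113138 and 139609 times in the cKO-labelled libraries. Every one of the latter was above every WT library. Its level went from 879 ± 30.1 to 2938 ± 119.8 CPM (SD, n = 3 each), a 3.34-fold rise with a log2 fold change of 1.74 (standard error 0.037) and a Benjamini-Hochberg adjusted p of 3.00e-16 by edgeR's quasi-likelihood test. Mmp8, the collagenase stored by neutrophils and also made by other cells, had 138, 234 and 228 counts in WT and 820, 716 and 961 in the cKO-labelled libraries. The groups did not overlap, and the level rose 4.32-fold, from 4.55 ± 1.41 to 19.5 ± 1.58 CPM (log2 fold change 2.11, standard error 0.16, adjusted p 8.06e-09, same test). Gm31751, for which no count was available, covers 10.8% of the Mmp8 exon bases on the opposite strand. The Mmp8 count is uncertain to that extent. Mmp1a and Mmp1b, also listed here with the collagenases, had too few counts to be tested. Mmp1a had 9, 22 and 12 counts in WT and 0, 0 and 2 in the other group, and Mmp1b 10, 9 and 23 against 2, 6 and 0. The far more abundant Mmp12 covers 10.8% of the Mmp1b exon bases on the opposite strand, so the Mmp1b count is uncertain. Of the 8 neutrophil markers, S100a8 and Camp were tested and both were higher. Their list summed to 4.64 to 7.94 CPM in WT and 10.1 to 11.2 CPM in the other group, and S100a9 was at 0 in every library while Ly6g, Mpo and Ngp were at or near 0. Whether neutrophil RNA contributed to the Mmp8 difference was not tested.

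Stromelysin 1, encoded by Mmp3, was the most abundant MMP transcript per unit of length in both genotypes. The WT libraries held 267026, 286457 and 232005 counts of it, and those labelled cKO 433548, 388519 and 468110. All 3 of the latter were higher than any WT library. The level rose from 5894 ± 108 to 10126 ± 308 CPM (SD, n = 3 each), which is 1.72-fold, with a log2 fold change of 0.78 (standard error 0.029) and an adjusted p of 3.17e-13 by the edgeR quasi-likelihood test, Benjamini-Hochberg adjusted. Stromelysin 2, encoded by Mmp10, went the other way, with 351, 366 and 389 counts in WT and 89, 60 and 122 in the cKO-labelled libraries. Its level fell from 8.40 ± 1.42 to 2.10 ± 0.588 CPM (log2 fold change -1.99, standard error 0.20, adjusted p 2.96e-07, same test), with no overlap. Mmp3 and Mmp10 are close paralogs, and 5 of the 100-base stretches in their exons were identical, of 1702 in Mmp3 and 1623 in Mmp10. Mmp11, or stromelysin 3, fell as well, from 25.4 to 14.8 CPM (log2 fold change -0.78), and Mmp7, matrilysin, had 0 counts in every library.

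The gelatinases, Mmp2 on chromosome 8 (93553919 to 93580048 in mm39) and Mmp9 on chromosome 2 (164782700 to 164797770), also split. Mmp2 had 21415, 22597 and 18945 counts in WT and 26061, 24705 and 28048 in the cKO-labelled libraries, and the levels did not overlap. Gm45472 covers 24.3% of the Mmp2 exon bases on the opposite strand and had 298 to 472 counts in WT and 685 to 857 in the other group, so the Mmp2 count is uncertain to that extent. Mmp2 rose 1.31-fold, from 473 ± 16.5 to 619 ± 1.92 CPM (log2 fold change 0.39, standard error 0.037, adjusted p 1.30e-07 by the edgeR quasi-likelihood test, Benjamini-Hochberg adjusted). Mmp9, known from osteoclasts, macrophages and neutrophils, had 944, 929 and 1007 counts in WT and 148, 94 and 149 in the other group. The lowest WT library stood far above the highest cKO-labelled library, and the level fell from 21.9 ± 3.70 to 3.05 ± 0.609 CPM (log2 fold change -2.83, standard error 0.15, adjusted p 5.06e-11, same test). This drop stood beside higher macrophage markers. Of the 7 osteoclast markers 5 were tested, Acp5 and Atp6v0d2 were higher and Ctsk lower, and the list summed to 123 to 126 CPM in WT and 147 to 179 CPM in the cKO-labelled libraries. Calcr and Dcstamp were at or near 0.

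Macrophage elastase, encoded by Mmp12, had 5394, 6595 and 5114 counts in WT and 11707, 11568 and 13726 in the cKO-labelled libraries. The groups were apart, and the level rose 2.27-fold from 128 ± 7.23 to 290.4 ± 11.98 CPM (log2 fold change 1.18, standard error 0.049, adjusted p 1.60e-12 by the edgeR quasi-likelihood test, Benjamini-Hochberg adjusted). Every macrophage marker rose by more than this, from a log2 fold change of 2.47 for Cd68 to 4.25 for Fcgr1. The part of macrophage RNA in the Mmp12 difference was not tested. A stretch of 157 bases of Mmp12 exons, or 2.17%, lies under Mmp1b on the opposite strand. Mmp27, a little-studied MMP, had 32, 40 and 17 counts in WT and 83, 62 and 76 in the cKO-labelled libraries, with a log2 fold change of 1.40 (standard error 0.33) and an adjusted p of 0.00263 in the same test. Its groups did not overlap either, although it was among the least abundant genes tested.

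At the cell surface the pattern was of decreases or no detected change. Mmp14, the membrane-type MMP that activates the Mmp2 proenzyme, had 22246, 23221 and 20299 counts in WT and 15882, 14592 and 16807 in the cKO-labelled libraries. Scaled to depth the groups were apart, and the level fell from 495 ± 27.5 to 371 ± 5.39 CPM (log2 fold change -0.41, standard error 0.042, adjusted p 3.20e-07 by the edgeR quasi-likelihood test, Benjamini-Hochberg adjusted). Mmp17, anchored by a lipid tail, had 316, 377 and 276 counts in WT and 71, 49 and 48 in the other group, and fell from 7.24 ± 0.310 to 1.33 ± 0.325 CPM (log2 fold change -2.45, standard error 0.20, adjusted p 1.39e-08). Mmp15, Mmp16 and Mmp24 did not pass the test. The 95% intervals of their log2 fold changes ran from -0.58 to 0.49, from -0.37 to 0.04 and from -0.55 to 0.72, so a rise or fall of moderate size in Mmp15 or Mmp24 was not detectable at this depth. Mmp24 shares 10.3% of its exon bases with an opposite-strand transcript, Mmp24os1, of higher count, and the strand setting of the counting is not given in the sources used here, so its value is uncertain. Mmp25 had 0 to 10 counts per library and was not tested.

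Of the remaining MMPs, Mmp19 rose slightly, from 81.0 ± 0.757 to 91.4 ± 3.78 CPM, a log2 fold change of 0.17 (adjusted p 0.00762 by the edgeR quasi-likelihood test, Benjamini-Hochberg adjusted). Without the third cKO-labelled library its adjusted p was 0.0511. Mmp19 overlaps Tmem198b on the opposite strand over 30.6% of its exon bases, and its count is uncertain for that reason. Mmp23 had a log2 fold change of -0.05 and did not pass the test. Mmp28 went from 11.2 to 12.8 CPM with groups that did not overlap, but its adjusted p was 0.126. On the opposite strand 1700020L24Rik covers 12.9% of the Mmp28 exon bases. Mmp20, an enzyme of tooth enamel, and Mmp21 had 0 counts in every library.

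**Figure D3:**
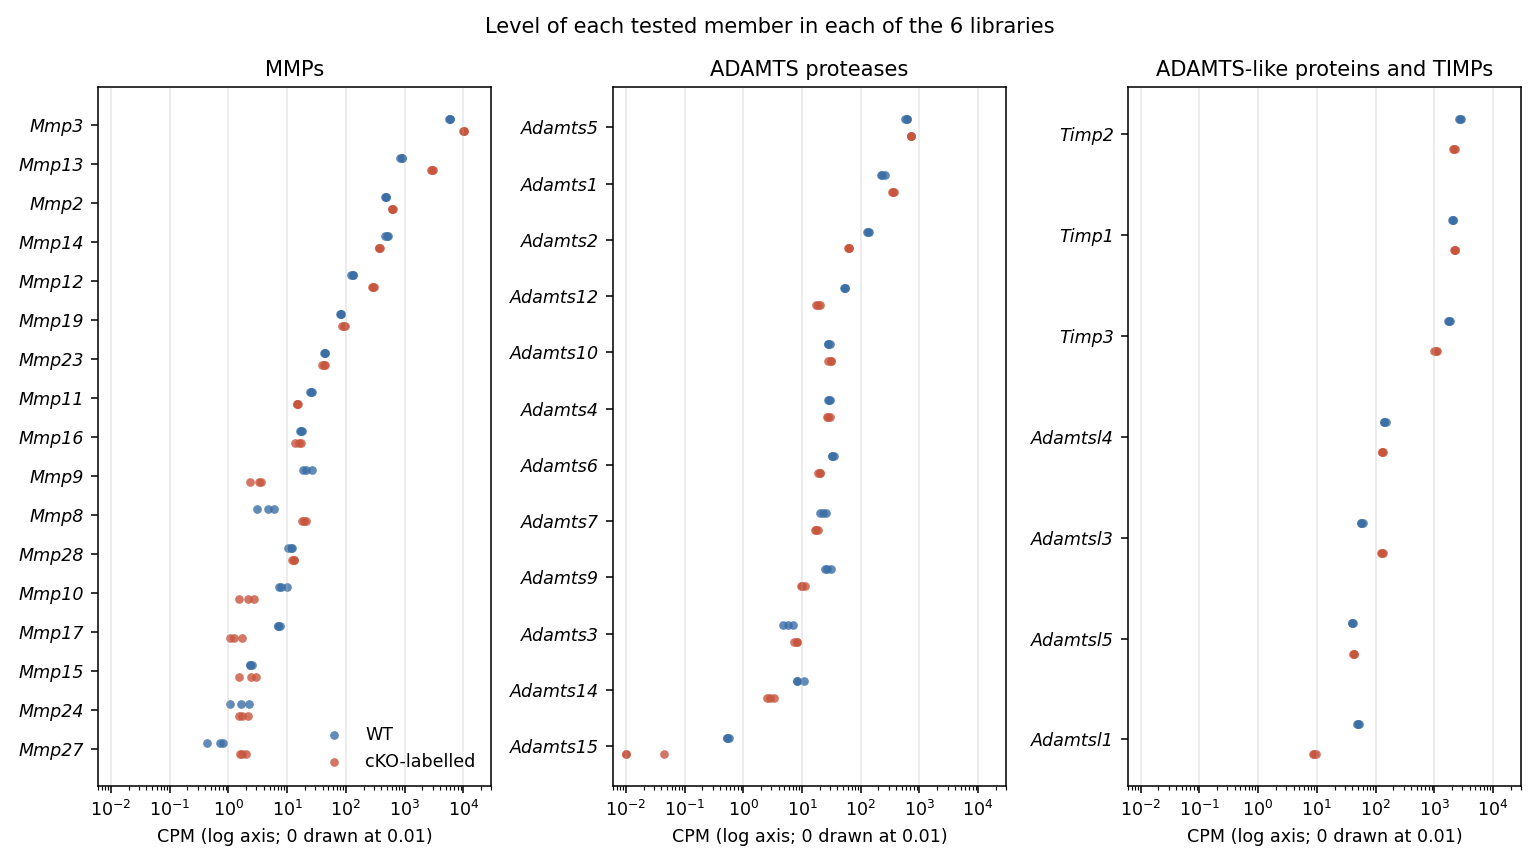
Level of each tested gene in each library in CPM on a log axis, with WT in blue and the cKO-labelled libraries in red, one point per library and a value of 0 drawn at 0.01. Points of a genotype lie close together for most genes, and the spread is widest for the genes with few counts, such as Adamts15, Mmp27 and Mmp24.

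Because CPM grow with transcript length, levels were compared between genes only after division by the gene length in kilobases. On this scale Mmp3 stood first in WT at 3273 ± 59.8 CPM per kilobase (SD, n = 3), followed by Mmp13 at 329 ± 11.3, Mmp2 at 140.3 ± 4.90, Mmp14 at 83.1 ± 4.62 and Mmp19 at 22.9 ± 0.214. The ranges of these 5 genes over the WT libraries were apart, whereas Mmp23 and Mmp12 overlapped at 18.6 ± 0.491 and 17.7 ± 0.999. In the cKO-labelled libraries Mmp3 was at 5623 ± 171 and Mmp13 at 1099 ± 44.8 CPM per kilobase (SD, n = 3 each). Mmp3 made up 83.6 ± 0.184% of the summed level of the 23 MMPs in WT and 79.5 ± 0.422% in the other group. The share of Mmp13 went from 8.40 ± 0.149% to 15.5 ± 0.383%, that of Mmp2 from 3.59 ± 0.0545% to 2.60 ± 0.0846% and that of Mmp14 from 2.12 ± 0.0783% to 0.881 ± 0.0209% (SD, n = 3 each). Mmp2 thus had a higher level and a smaller share. These shares are descriptions and were not tested.

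Per kilobase, Timp1 stood at 2301 ± 36.8 CPM in WT (SD, n = 3), second to Mmp3 among the 51 genes. Timp1, the X-linked inhibitor that is induced by inflammatory stimuli, had 90290, 102488 and 79943 counts in WT and 93922, 85512 and 101378 in the cKO-labelled libraries. Its groups were apart by a small margin, with 2006 to 2065 CPM against 2150.4 to 2232 CPM, and the rise was 1.08-fold (log2 fold change 0.11, standard error 0.031, adjusted p 0.00849 by the edgeR quasi-likelihood test, Benjamini-Hochberg adjusted). The adjusted p was 0.0942 without the first WT library and 0.0566 without the first cKO-labelled library. Timp1 lies on chromosome X, from 20736405 to 20740974 in mm39, and the difference in sex markers between the groups was not separated from it. Timp2, which inhibits MMPs and also takes part in the activation of Mmp2 by Mmp14, had 123420, 130176 and 109349 counts in WT and 91778, 87812 and 95445 in the other group. It fell from 2727 ± 97.8 to 2164 ± 55.7 CPM (log2 fold change -0.33, standard error 0.034, adjusted p 2.73e-07, same test), with no overlap. Cep295nl covers 7.44% of the Timp2 exon bases on the same strand, so the Timp2 count is uncertain to that extent. Cep295nl had 305 to 342 counts in WT and 172 to 181 in the cKO-labelled libraries. Timp3, the matrix-bound TIMP that also inhibits aggrecanases and ADAM17, had 78975, 92698 and 66570 counts in WT and 44969, 43388 and 44749 in the cKO-labelled libraries. It showed the largest fall of the 3 tested TIMPs, from 1779 ± 79.4 to 1048 ± 55.9 CPM (log2 fold change -0.76, standard error 0.042, adjusted p 7.78e-11, same test). The Syn3 gene covers 21.3% of the Timp3 exon bases on the opposite strand, so the Timp3 count is uncertain to that extent. Timp4 had 14, 2 and 2 counts in WT and 0 in every cKO-labelled library and was not tested.

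Per kilobase, Timp1 was the leading inhibitor, with 71.5 ± 0.505% of the summed TIMP level in WT and 78.4 ± 0.82% in the cKO-labelled libraries (SD, n = 3 each). Timp2 held 21.7 ± 0.769% and 17.5 ± 0.582%, and Timp3 6.79 ± 0.316% and 4.07 ± 0.241%. Summed over the 4 genes, the TIMP level was 3178, 3228 and 3253 CPM per kilobase in the WT libraries and 3205, 3122 and 3173 in those labelled cKO, and these overlapped. In CPM without division by length, where the longer Timp2 and Timp3 weigh more, the TIMP sum was 6503, 6556 and 6592 in WT and 5482, 5449.8 and 5318 in the cKO-labelled libraries, lower without overlap. Per kilobase the MMP sum was 3942, 3824 and 3976 in WT and 7155, 6840 and 7228 in the other group, higher without overlap. The ratio of the MMP sum to the TIMP sum was 1.22 ± 0.0285 in WT and 2.23 ± 0.0436 in the cKO-labelled libraries (SD, n = 3 each). The ratio was formed after the data had been seen, is one of transcripts, and was not tested.

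**Figure D4:**
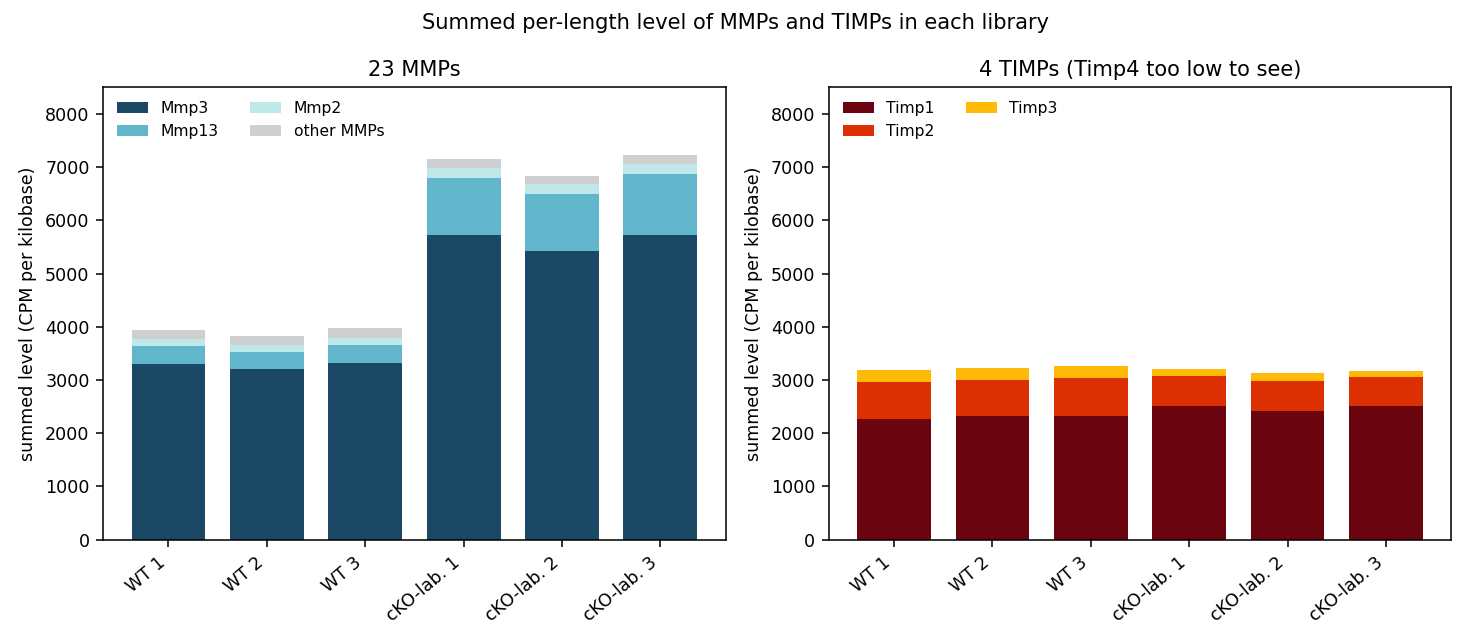
Summed level of the 23 MMPs (left) and the 4 TIMPs (right) in each library in CPM per kilobase, stacked by gene. The MMP bars reach 3824 to 3976 in WT and 6840 to 7228 in the cKO-labelled libraries, while the TIMP bars stay between 3122 and 3253 in all 6 libraries, on a scale on which Timp1 weighs most.

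Among the ADAMTS proteases that cut aggrecan and versican, Adamts5 and Adamts1 were the most abundant per kilobase. Adamts5, the main aggrecanase of mouse cartilage, had 27405, 29938 and 21725 counts in WT and 30092, 28806 and 32752 in the cKO-labelled libraries. After scaling the groups did not overlap, and it rose 1.22-fold from 591 ± 26.9 to 720.2 ± 4.69 CPM (log2 fold change 0.29, standard error 0.038, adjusted p 8.84e-06 by the edgeR quasi-likelihood test, Benjamini-Hochberg adjusted). Adamts4, the other classical aggrecanase, had 1280, 1374 and 1183 counts in WT and 1157, 1050 and 1357 in the other group. Its levels overlapped, and the log2 fold change of -0.05 had a 95% interval from -0.20 to 0.11 (adjusted p 0.661, same test). Adamts1 rose from 233 ± 19.5 to 359 ± 13.0 CPM, a log2 fold change of 0.62 (adjusted p 2.46e-08). Adamts5 was above Adamts1 in WT, at 54.7 ± 2.49 against 44.0 ± 3.67 CPM per kilobase with ranges apart, and in the cKO-labelled libraries they overlapped at 66.7 ± 0.435 and 67.8 ± 2.44 (SD, n = 3 each). The pair are neighbours on chromosome 16, from 85590715 to 85698716 in mm39, with 53.1 kb between them.

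Adamts9 and Adamts15, members of the same functional group, fell. Adamts9 had 1185, 1218 and 1205 counts in WT and 403, 440 and 462 in the cKO-labelled libraries, with no overlap. Its level fell from 27.3 ± 3.36 to 10.3 ± 0.749 CPM (log2 fold change -1.41, standard error 0.099, adjusted p 2.43e-09 by the edgeR quasi-likelihood test, Benjamini-Hochberg adjusted). A730049H05Rik and Gm15737 cover 9.2% and 2.81% of the Adamts9 exon bases on the opposite strand, so the Adamts9 count is uncertain to that extent. Adamts15 had 24, 26 and 22 counts in WT and 0, 0 and 2 in the other group. With the latter at the floor of 3 counts per library it was at least 7.63-fold lower, or at least 3.82-fold with a floor of 6 counts, since small counts in these libraries were mostly even, as when both reads of a pair are counted. Its adjusted p was 0.000164 in the same test. Adamts8 had 2, 9 and 2 counts in WT and 0 in the other group, and Adamts20 0 to 10, and neither was tested.

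The procollagen N-proteinases, which remove the amino propeptide of fibrillar procollagens, fell in 2 of 3 cases. Adamts2, the most abundant of them, had 5982, 6336 and 5426 counts in WT and 2638, 2505 and 2802 in the cKO-labelled libraries. The level went from 133 ± 6.08 to 62.5 ± 0.687 CPM (log2 fold change -1.10, standard error 0.048, adjusted p 4.08e-12 by the edgeR quasi-likelihood test, Benjamini-Hochberg adjusted), without overlap. Adamts14 had 367, 408 and 418 counts in WT and 118, 100 and 153 in the other group, also without overlap, and fell from 9.05 ± 1.49 to 2.90 ± 0.434 CPM (log2 fold change -1.64, standard error 0.17, adjusted p 3.25e-07). Adamts3, which is known mainly for processing the lymphangiogenic factor Vegfc, was higher, at 7.88 ± 0.478 against 5.82 ± 1.10 CPM (log2 fold change 0.44, adjusted p 0.0272, same test). That call rested on single libraries, since the adjusted p was 0.146 and 0.068 without the first and the second WT library, and 0.089 and 0.0826 without the first and the second cKO-labelled library. Of the genes for their fibrillar substrates, Col1a1 and Col2a1 were lower (log2 fold changes -0.67 and -0.84), Col3a1 was higher (0.13), and Col1a2 did not pass the test.

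Adamts12 and Adamts7, grouped here as ADAMTS proteases that cut cartilage oligomeric matrix protein, fell, while the gene for that protein rose. Other proteases that may cut it were not grouped with them. Adamts12 had 2440, 2692 and 2015 counts in WT and 740, 744 and 920 in the cKO-labelled libraries, with no overlap, and fell from 53.5 ± 1.34 to 18.8 ± 1.34 CPM (log2 fold change -1.50, standard error 0.067, adjusted p 4.18e-12 by the edgeR quasi-likelihood test, Benjamini-Hochberg adjusted). Adamts7 fell from 22.9 ± 2.46 to 17.5 ± 1.07 CPM, a log2 fold change of -0.39 (adjusted p 0.00212). Comp, the substrate, went from 567 ± 26.4 to 2117 ± 75.2 CPM, a log2 fold change of 1.90 (adjusted p 2.43e-16, same test). Of the 8 chondrocyte markers, 7 were tested, 6 of them were higher and Col2a1 was lower. Their sum, most of it Col2a1, was 1424 to 1589 CPM in WT and 889 to 983 CPM in the cKO-labelled libraries, Col9a1 and Col9a2 were at 0 in WT, and the part of chondrocyte RNA in the Comp difference was not tested.

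Of the ADAMTS proteases related to fibrillin and those with less known substrates, Adamts6 fell from 33.4 to 19.9 CPM, a log2 fold change of -0.75 (adjusted p 1.08e-07 by the edgeR quasi-likelihood test, Benjamini-Hochberg adjusted), and Adamts10 did not pass the test (log2 fold change 0.06). Adamts16, Adamts17 and Adamts18 had 0 to 10 counts per library, and Adamts19 had 0 in all. Adamts13, which cuts von Willebrand factor, had 0 to 4 counts and was not tested. Fbn1 fell with a log2 fold change of -0.74, and Fbn2, at a far lower level, rose 2.32-fold from 3.18 to 7.37 CPM.

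The ADAMTS-like proteins keep the ancillary domains of the family but lack the protease domain. Adamtsl1 had 2166, 2452 and 2040 counts in WT and 367, 382 and 411 in the cKO-labelled libraries. Its fall from 50.03 ± 2.28 to 9.13 ± 0.447 CPM was among the largest here (log2 fold change -2.45, standard error 0.074, adjusted p 2.05e-14 by the edgeR quasi-likelihood test, Benjamini-Hochberg adjusted), with no overlap. Adamtsl3 rose instead, with 2547, 2795 and 2366 counts in WT and 5243, 5191 and 6067 in the other group. Its level was 58.0 ± 2.60 in WT and 129.6 ± 4.56 CPM in the cKO-labelled libraries (log2 fold change 1.16, standard error 0.050, adjusted p 3.28e-12), again without overlap. Adamtsl4, which binds fibrillin, was marginally lower (log2 fold change -0.13, adjusted p 0.0409), and this call was lost without the first WT library (adjusted p 0.141) and without the first or the third cKO-labelled library (0.147 and 0.149). Adamtsl5 went from 39.7 to 42.2 CPM without overlap, with an adjusted p of 0.231, and Adamtsl2 had 4, 14 and 5 counts in WT and 0 in the other group. Per kilobase, Adamtsl4 held 63.0 ± 1.78% of the summed ADAMTS-like level in WT and 53.9 ± 0.984% in the cKO-labelled libraries. The share of Adamtsl3 was 14.0 ± 0.764% and 29.2 ± 0.784%, and that of Adamtsl1 was 7.32 ± 0.452% and 1.25 ± 0.0352% (SD, n = 3 each).

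The proteins that activate, bind or resemble these enzymes were examined as a list of 67 genes, also chosen with earlier results known. Of the 58 tested, 21 were higher and 23 lower in the cKO-labelled libraries, that is at an adjusted p below 0.05 by the edgeR quasi-likelihood test, Benjamini-Hochberg adjusted, and the median log2 fold change was -0.06. These are 36.2% and 39.7%, against 20.1% and 19.2% of all tested genes. Of 6 tested activating proteases and their receptor 3 rose and 2 fell, or 50% and 33.3%. Plaur, the urokinase receptor, Plau (urokinase) and Furin rose with log2 fold changes of 0.71, 0.33 and 0.14. Plat and Pcsk5 fell with -0.92 and -0.996. Among the other inhibitors, Reck, a membrane-anchored MMP inhibitor, rose with a log2 fold change of 0.21 and Serpine2 with 0.73, whereas Tfpi2 fell with -3.54. A2m, a broad protease trap, had 139, 205 and 124 counts in WT and 0 in every cKO-labelled library, which made it at least 48.9-fold lower, or 24.5-fold with the floor of 6 counts. Bsg, a known inducer of MMPs, fell with -0.91, and Sdc4 and Cd44, which dock some of these enzymes at the cell surface, rose with 0.40 and 0.16.

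Of 14 other metalloproteinases tested, 4 rose and 8 fell, or 28.6% and 57.1%, against 20.1% and 19.2% of all tested genes. Adam8, known from myeloid cells, had 4415, 5688 and 5180 counts in WT and 31388, 30194 and 33683 in the cKO-labelled libraries, and rose 6.49-fold (log2 fold change 2.70), beside the macrophage markers given above. Adam10, Adam17 and Mme rose by less than 2-fold. Adam19 fell with a log2 fold change of -1.91, Tll1 with -1.59, Adam12 with -1.20 and Bmp1, the procollagen C-proteinase, with -1.08, from 341 ± 23.2 to 161 ± 4.28 CPM (SD, n = 3 each). Bmp1 and 2 of the 3 N-proteinases, Adamts2 and Adamts14, which act on the opposite ends of procollagen, were thus lower. The third N-proteinase, Adamts3, was higher, in the call that rested on single libraries. Of 15 tested substrates 6 rose and 6 fell. Acan, which encodes aggrecan, had 8, 2 and 6 counts in WT and 871, 782 and 922 in the cKO-labelled libraries, and Vcan, versican, changed little (log2 fold change -0.13). Fn1, fibronectin, fell with -0.72, and Vwf rose with 1.67. Of the 13 transcription factors tested 4 rose, namely Fos, Cebpb, Ets2 and Junb, and 3 fell, namely Ets1, Fosl1 and Runx2, while Nfkb1 and Rela did not pass the test. The shares were 30.8% and 23.1% for the transcription factors and 40% in each direction for the substrates, to be read against the same 20.1% and 19.2%.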

How the data were processed

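RNA sequencing counts of 3 WT and 3 cKO libraries of stimulated osteocytes were analysed, with genotype and replicate number taken from the sample titles. The authors sequenced 150 bp paired-end reads from a directional kit, aligned them to mm39 with HISAT2 2.0.5 and counted them with featureCounts, for which the submitters' notes give release 1.55.0-p3 and the methods another release, together with RSEM. They deposited raw counts per gene, not normalized, with a gene length in bases and coordinates. The strand setting is not given in the sources used here.

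Genes were filtered with filterByExpr (minimum count 10), scaled by TMM and tested with glmQLFit and glmQLFTest of edgeR 4.0.16 in R 4.3.3, with genotype as the only term and Benjamini-Hochberg adjustment over 17146 genes, two-sided. A gene changed when its adjusted p was below 0.05. Levels are counts per 1000000 of the TMM-scaled library size (CPM), divided by gene length in kilobases for comparison between genes. A group at 3 counts or fewer per library was held at that floor, and 6 counts were also used. As there were no molecular identifiers, reads are not independent molecules and these floors account for counting error alone. Exon overlaps came from GENCODE M39 on GRCm39 and promoter windows from RefSeq.

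Genes were named as follows: counts per library for members changed at least 2-fold, all TIMPs, Mmp2, Mmp3, Mmp9, Mmp13, Mmp14, Adamts4 and Adamts5, and levels, fold changes or count ranges for the rest. The members and the lists of related genes and cell markers were chosen with earlier results of these data known. Not every related gene is reported by name here. Replicates differed by more than sampling noise (chi-square per gene 4.88 to 13.9), so all 6 libraries were counted separately. The procedure was tested on simulated data. The alternatives were DESeq2 1.42.0, limma-voom (limma 3.58.1), RLE scaling, library size only, 2 other filters, counts halved, replicate number as a block and each library left out in turn.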

Additional observations from a re-analysis of the deposited data

How the results depend on the processing

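Of 503 values of the 36 tested genes under the alternatives, 488 kept their direction and their side of the threshold, and 12 values of Adamts3, Adamtsl4, Mmp19 and Timp1 no longer passed. Adamtsl4 failed with library size only (adjusted p 0.0915). The other failures came from leaving out a library or, for Adamtsl4, from the block. Direction turned in 3 values of genes that never passed the test: Mmp15 at 0.19 without the first cKO-labelled library (range over the libraries left out -0.27 to 0.19), and Mmp24 at -0.15 without the third WT library and -0.06 without the first cKO-labelled library (range -0.15 to 0.37). The number of higher genes lay between 10 and 12 over all alternatives and over the libraries left out, and that of lower genes between 15 and 19, or 16 and 18 over the libraries left out. At least 2-fold, 5 rose throughout, and 8 to 12 fell, or 9 to 11 over the libraries left out. For the related genes the range was 19 to 22 higher and 19 to 24 lower. The cause of these shifts was not tested. Adamts15, with 2 counts in 1 cKO-labelled library, had a fitted log2 fold change of -7.55 without that library, the third, and up to -4.38 without the others, so its fitted value is no bound.

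No pairing of the libraries by replicate number was detected, as deviations from the group means of libraries with the same number correlated at 0, 0.001 and -0.014. All tested genes weighed alike in these values, noisy genes with few counts included, so they do not exclude a pairing. With the replicate number as a block 12 genes were higher and 15 lower, and Adamtsl4 lost its call (adjusted p 0.059).

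In CPM without division by length, Mmp3 held 72.8% of the MMP sum in WT and 69.6% in the cKO-labelled libraries, Mmp13 10.9% and 20.2%, Timp1 31.2% and 40.7% of the TIMP sum, and Adamts5 50.6% and 56.4% and Adamts1 20.0% and 28.1% of the ADAMTS sum. The ratio of the MMP to the TIMP sum, an alternative added after the data had been seen, was 1.24 in WT and 2.69 in the cKO-labelled libraries. Depth limits the 15 untested genes, none of which passed 23 counts in any library, and Mmp15, Mmp24 and Mmp27.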
